A study of Mus musculus with 5 samples.

Results

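The genes described here encode the proteins that license DNA replication origins, open them and copy the DNA and its chromatin at the fork. They were chosen by name, with earlier results of these data known. There were 42 genes in 5 roles, and 41 of them had a probe set paired with their symbol alone, of 22180 genes measured. Rfc4, whose probe set is shared with Eif4a2, was not analysed. The study compared Ter119+ bone marrow cells of phlebotomized wild-type mice (WT, Polgtm1Lrsn wt/wt, 2 arrays) and of mice homozygous for a mutant mitochondrial DNA polymerase (Polg mutant, Polgtm1Lrsn mt/mt, 3 arrays). Cells bearing CD45, the common leukocyte antigen, had been depleted on magnetic beads before the erythroid antigen Ter119 was used for selection. All mice were on a C57BL/6 background and came from parents that were both Atg7 flox/flox, so both groups carry the floxed Atg7 alleles; the sire also had 1 Epo-cre knock-in allele, and which offspring inherited it is not stated. The phlebotomy is named in the design text while the treatment field reads none, and the title calls the mutator mice aged without an age. The labels do not say whether each array is 1 animal, so p-values cover only the variation among these arrays, part of which may be technical.

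Before S phase, the origin recognition complex recruits Cdc6 and Cdt1, which load the ring-shaped Mcm2-7 helicase onto origins; geminin blocks reloading once replication has begun. Cdc7 with Dbf4 and the cyclin-dependent kinases then attach Cdc45 and the GINS complex to the helicase, primase and the polymerases start synthesis, and Pcna, the sliding clamp, holds polymerases, nucleases, ligase and chromatin assembly factors at the fork. Many of these genes are transcribed at the G1/S transition under E2F factors, and erythroblasts divide several times before they lose the nucleus. None of this machinery copies mitochondrial DNA as its main duty; Polg does that, in a separate replisome.

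Since many of these genes are textbook E2F targets, their promoters were searched for E2F-type letters. The motifs were TTTCCCGC, TTTGGCGC, TTTCGCGC and TTTGCCGC, on both strands, where overlapping matches were counted separately. The windows ran from 250 bases before to 50 after each start in RefSeq (build GRCm38.p6), and some genes had several windows. Of the 41 measured genes 34 had a window, and 16 of these (47.1%) held a match, against 3.26% of the 16990 tested genes that had a window. Counted by window, 36.4% of 44 replication gene windows held a match, against 2.27% of all 32851. The 10 genes with a match that ended before the start are printed here, 5′ to 3′ on the strand of the gene and in capitals where the letters matched, to show that they span licensing, helicase, polymerase, clamp loader and chromatin genes. Stretches inside the outermost bounds of a gene were kept to 30 bases.
Cdc6, chr11:98908002-98908031, + strand: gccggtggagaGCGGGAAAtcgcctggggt
Orc1, chr4:108579416-108579445, + strand: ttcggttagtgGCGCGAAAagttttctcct
Mcm5, chr8:75109336-75109387, + strand: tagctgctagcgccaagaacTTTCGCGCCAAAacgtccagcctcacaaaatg
Mcm6, chr1:128359725-128359835, - strand: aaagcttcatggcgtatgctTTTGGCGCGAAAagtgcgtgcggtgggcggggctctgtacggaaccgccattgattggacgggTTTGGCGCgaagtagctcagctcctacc
Mcm7, chr5:138172030-138172059, - strand: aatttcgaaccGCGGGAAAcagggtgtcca
Gins3, chr8:95633498-95633545, + strand: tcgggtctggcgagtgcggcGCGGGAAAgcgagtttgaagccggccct
Pola1, chrX:93632275-93632304, - strand: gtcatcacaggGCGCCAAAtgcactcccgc
Rfc3, chr5:151651209-151651238, - strand: ccggaagtgacgtcgcacgcTTTCGCGCtc
Dnmt1, chr9:20952824-20952853, - strand: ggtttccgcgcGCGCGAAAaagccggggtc
Uhrf1, chr17:56304117-56304146, + strand: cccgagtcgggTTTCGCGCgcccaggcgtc
A match is a description of letters in the window and not a measured binding site.

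In the Polg mutant cells 40 of the 41 replication genes had a lower mean level than in WT, by small amounts. The median difference was -0.25 on the log2 scale, with a range from -0.60 (Cdc6 and Uhrf1, each 1.52-fold lower) to 0.10 (Rfc5). Differences are on the log2 scale, the Polg mutant mean less the WT mean, and carry the SE (standard error) from limma over 2 WT and 3 Polg mutant arrays. In 7 genes it was below -0.4, in 23 between -0.4 and -0.2, in 10 between -0.2 and 0, and in 1 above 0. The median difference over all genes was 0, and 48.3% of all genes were lower.

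None of the replication genes passed limma's test at an adjusted p under 0.05, with p-values adjusted over all 22180 genes by the method of Benjamini and Hochberg. The same test passed 0% of all genes, so it called nothing anywhere in this comparison. The smallest adjusted p was 0.238, for Fen1. At an unadjusted p under 0.05 there were 14 replication genes lower and 0 higher, where 5.33% of all genes were lower and 4.18% higher; among genes of a mean log2 level above 6, where all 41 lie, 12.6% were lower. The count of 14 depended on single arrays. Without WT replicate 1 it was 2 of 41 (4.88%), below the 11.6% of all genes that were lower in the same fit. It was 9 without WT replicate 2 (8.35% of all genes), 8 without Polg mutant replicate 2 (4.21%) and 5 without Polg mutant replicate 3 (4.31%). With the replicate number as a block it was 2 (4.88%), near the 4.77% of all genes.

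A gene is called separated where the arrays of the groups do not overlap. Of the 41 genes 29 were separated with the Polg mutant lower, and 0 with the Polg mutant higher. Over all genes these shares were 9.73% and 8.36%, and among the genes of mean log2 above 6 they were 20.6% and 16.7%. Exact ties between arrays were present for 67.9% of all genes and 11 of the 41, and a gene tied across the groups cannot separate. Centring each array on the genes of mean log2 above 6 breaks such ties, but it also moved the median difference of all genes to -0.052. Of all genes 1377 then separated upward, against 1854 without it. The share separated downward over all genes was then 20.9% and the count of replication genes was 32. With WT replicate 1 left out they were 28.1% and 34, and with WT replicate 2 left out 20.8% and 35. The gap between the lowest WT array and the highest Polg mutant array ranged from 0.0074 in Rfc1 to 0.39 in Cdc6. An exact permutation test of a single gene could not go below p = 0.1, since 5 arrays allow 10 splits.

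**Figure D1:**
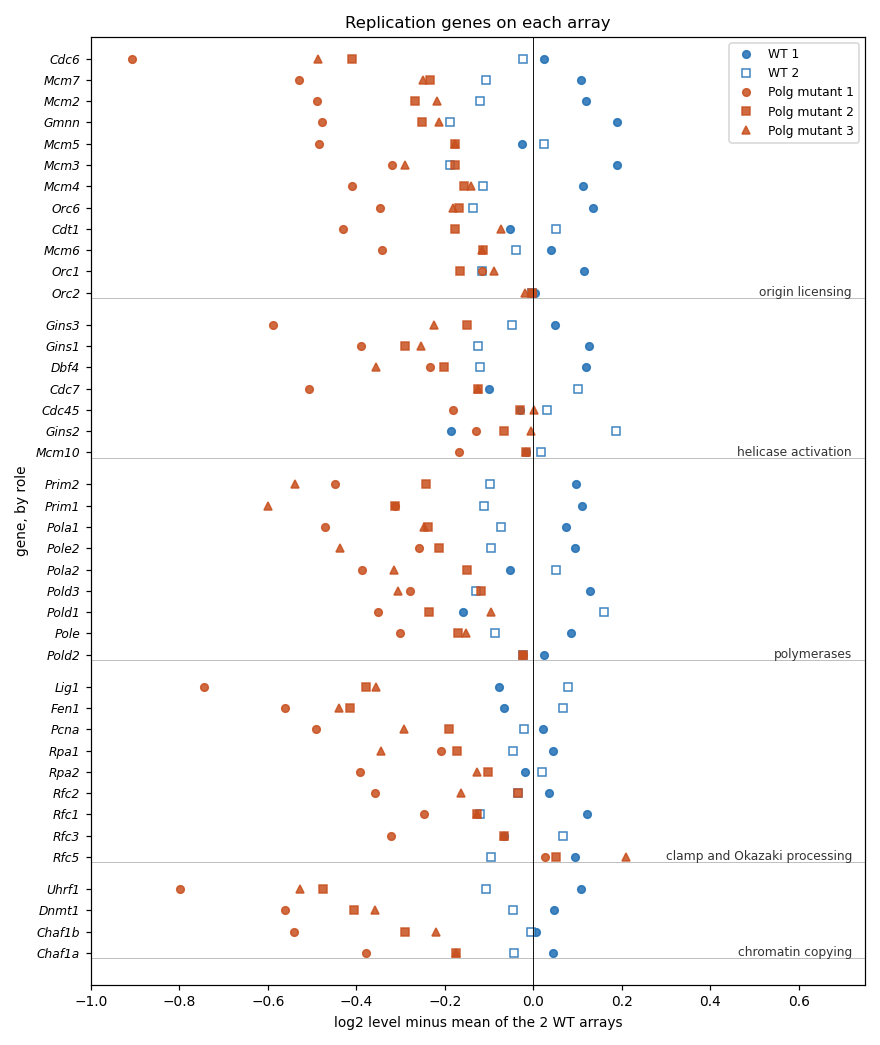
Log2 level of each of the 41 replication genes on each array, minus the mean of the 2 WT arrays, with genes grouped by role (vertical axis). Blue marks are WT and orange marks Polg mutant arrays; most orange marks lie left of both blue marks, and Polg mutant replicate 1 (orange circles) is the lowest Polg mutant array in 32 genes.

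Origin licensing genes were lower with a median of -0.25 over 12 genes, and 9 of the 12 were separated. Among genes of mean log2 above 6, 20.6% separated downward. Cdc6, the ATPase that loads the helicase with Cdt1, read 10.13 and 10.08 on the WT arrays and 9.20, 9.70 and 9.62 on the Polg mutant arrays. The groups did not overlap, and replicate 1 stood well below the other Polg mutant arrays. The difference was -0.60 ± 0.18 (SE, limma adjusted p = 0.446), and -0.45 without Polg mutant replicate 1.

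The 6 subunits of the Mcm2-7 ring differed by -0.19 to -0.34, and all but Mcm3 separated, against 20.6% of genes of mean log2 above 6. Mcm2 read 10.86 and 10.62 in WT, against 10.26, 10.48 and 10.53 in Polg mutant cells. Mcm7 read 11.28 and 11.07 in WT, against 10.65, 10.94 and 10.93 in Polg mutant cells. Both are core subunits of the ring and both were lowest on Polg mutant replicate 1, with gaps of 0.099 and 0.13 between the groups. Mcm5 read 11.49 and 11.54 in WT against 11.03, 11.34 and 11.34. In Mcm3 the Polg mutant replicate 2 value of 9.34 lay just above the WT replicate 2 value of 9.33, so its groups overlapped.

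The loading factor and its inhibitor were lower alike: Cdt1 differed by -0.23 ± 0.13 and Gmnn, which encodes geminin, by -0.31 ± 0.16 (SE, limma adjusted p = 0.638 each). The origin recognition subunits spanned a wide range. Orc6 differed by -0.23, Orc1, the subunit whose protein cycles with the cell cycle, by -0.12 with overlapping groups, and Orc2 by -0.0079. Orc2 read 8.39 and 8.38 in WT, against 8.38, 8.38 and 8.36 in Polg mutant cells, the smallest difference of all 41 genes, and its sign turned to 0.0075 after renewed quantile normalization.

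Helicase activation genes had a median of -0.25 over 7 genes. Where 20.6% of genes of mean log2 above 6 separated downward, 4 of the 7 did and 3 did not. The separated genes were Gins1, Gins3, Cdc7 and Dbf4. Gins1, a GINS subunit, read 7.65 and 7.40 in WT, against 7.14, 7.24 and 7.27 in Polg mutant cells, a difference of -0.31 ± 0.10 (SE, limma adjusted p = 0.464). Dbf4, which activates the Cdc7 kinase, read 9.69 and 9.45 in WT, against 9.34, 9.37 and 9.22 in Polg mutant cells, lowest on replicate 3. Cdc7 itself read 7.45 and 7.65 in WT, against 7.04, 7.42 and 7.42 in Polg mutant cells, so both partners of the kinase were lower on every Polg mutant array.

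Gins3, another GINS subunit, read 8.99 and 8.89 in WT, against 8.35, 8.79 and 8.71 in Polg mutant cells, which is the largest difference of this role (-0.32 ± 0.16). Its single match to the E2F-type letters is printed above. The genes of this role that did not separate had smaller differences. Cdc45 differed by -0.070, Mcm10 by -0.066 and the GINS subunit gene Gins2 by -0.067, all with overlapping groups. Mcm10 read 8.39 and 8.42 in WT, against 8.24, 8.39 and 8.39 in Polg mutant cells, where replicate 1 alone lay below WT. Gins2 read 8.19 and 8.57 on the WT arrays, which differ by more than any pair of the Polg mutant arrays (8.25, 8.31 and 8.38), and its difference was 0.12 without WT replicate 2. In the list of further origin and fork genes, the GINS subunit gene Gins4 differed by -0.38, Donson by -0.45 and Topbp1 by -0.25. These separated with the Polg mutant lower, while Ticrr of that list differed by -0.16 with overlapping groups. Whether the GINS subunit genes differ from each other in their response was not tested.

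Polymerase genes were lower with a median of -0.28 over 9 genes, 6 of which separated, and 5 had an unadjusted p under 0.05. The share lower at that p was 5.33% of all genes and 12.6% of those of mean log2 above 6. Of the latter 20.6% separated downward. All 4 subunits of the polymerase alpha and primase complex, which lays down the RNA-DNA primers, were among those 5. The count of 5 was not stable. It was 0 with no moderation of the variance, with the replicate number as a block and without Polg mutant replicate 3. Without Polg mutant replicate 1 it was 1, and after centring on genes of mean log2 above 6 it was 7. Prim2, the large primase subunit, read 10.09 and 9.89 in WT, against 9.54, 9.75 and 9.45 in Polg mutant cells. Prim1, the catalytic primase subunit, read 8.55 and 8.33 in WT, against 8.13, 8.13 and 7.84 in Polg mutant cells. The 2 primase genes were each 1.33-fold lower, by -0.41 ± 0.12 and -0.41 ± 0.13 (SE, limma adjusted p = 0.441 and 0.492).

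Pola1, the catalytic subunit of polymerase alpha, read 9.58 and 9.44 in WT, against 9.04, 9.27 and 9.26 in Polg mutant cells, and differed by -0.32 ± 0.10. Pola2, its regulatory subunit, read 9.48 and 9.59 against 9.15, 9.39 and 9.22, and differed by -0.28 ± 0.09. In both genes the gap between the groups (0.17 and 0.097) was smaller than the spread among the Polg mutant arrays. Of the leading strand polymerase epsilon, Pole2 differed by -0.30 and the catalytic gene Pole by -0.21, and both separated, while the second Pole probe set, which reads dimmer, differed by -0.0068. The genes of its small subunits, from the list of further fork genes, overlapped: Pole3 differed by -0.026 and Pole4 by 0.023, and both signs turned under another scaling. Polymerase delta, which copies the lagging strand, did not separate in any of its 4 measured genes: Pold1 and Pold3 differed by -0.23 each, Pold2 by -0.023 and Pold4, its smallest subunit and one of the further fork genes, by 0.17.

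Pold2 read 9.40 on WT replicate 1 and 9.35 on all 4 other arrays, and its sign turned to 0.038 after renewed quantile normalization. The lowest Polg mutant array was not the same throughout this role. Replicate 1 was lowest in 4 of the 9 polymerase genes and replicate 3 in 4 (Prim1, Prim2, Pole2 and Pold3), with 1 tie. In the other 4 roles together, replicate 3 was lowest only in Orc2, Dbf4 and Rpa1.

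**Figure D2:**
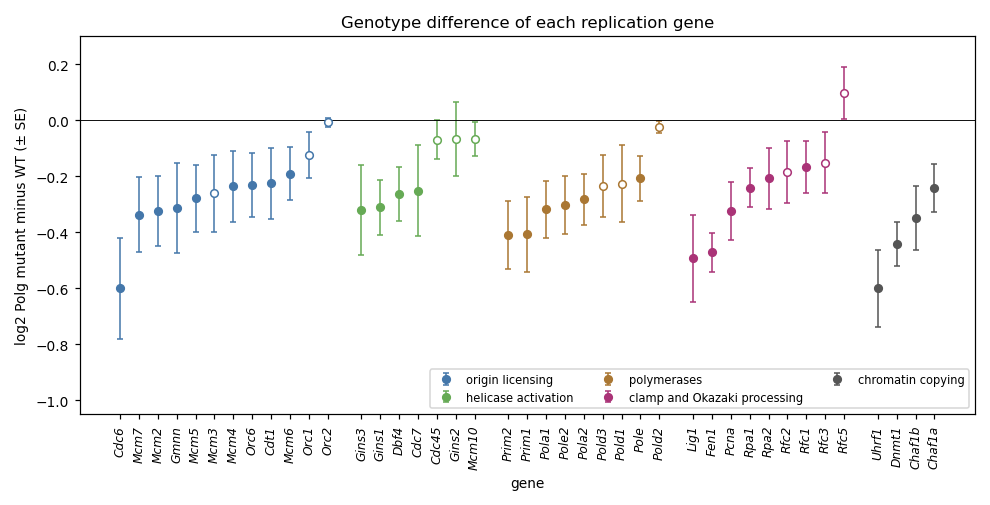
Difference of each replication gene, log2 Polg mutant minus WT (vertical axis) with its SE as bars, by role along the horizontal axis. Filled points mark the 29 genes whose Polg mutant arrays all lie below both WT arrays, and open points the 12 others; only Rfc5 lies above 0.

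Clamp and Okazaki fragment genes had a median of -0.21 over 9 genes, of which 6 separated and 4 had an unadjusted p under 0.05. Of genes of mean log2 above 6, 12.6% were lower at that p and 20.6% separated downward. The count of 4 was 2 with no moderation of the variance and 2 with the replicate number as a block. Fen1, the flap endonuclease that trims the ends of Okazaki fragments, read 8.73 and 8.86 in WT, against 8.23, 8.38 and 8.36 in Polg mutant cells. Lig1, the ligase that seals them, read 9.89 and 10.04 in WT, against 9.22, 9.59 and 9.61 in Polg mutant cells. The 2 enzymes of the last steps on the lagging strand had the largest differences of this role, -0.47 ± 0.07 and -0.49 ± 0.16 (SE, limma adjusted p = 0.238 and 0.471).

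Pcna, the clamp on which both enzymes work, read 12.20 and 12.15 in WT, against 11.68, 11.98 and 11.88 in Polg mutant cells, a 1.25-fold difference. Rpa1, the large subunit of the single-strand binding protein, read 9.27 and 9.18 against 9.02, 9.05 and 8.88, and Rpa2, a smaller subunit, differed by -0.21. Pcna, Rpa1 and Rpa2 all separated, as did both enzymes. The second Fen1 probe set, which reads dimmer (6.07 to 6.32), differed by -0.11, and the second Rpa1 probe set (3.78 to 4.38) by -0.045, so the size for these genes rests on the brighter probe set.

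The clamp loader, the Rfc complex that opens and closes Pcna around DNA, had differences nearer 0 than the clamp gene; these were not tested against each other. Rfc1, its large subunit, differed by -0.17, Rfc2 by -0.19 and Rfc3 by -0.15, and of these Rfc1 alone separated, by the smallest gap of all. Rfc5 was the single replication gene with a higher mean in the Polg mutant. It read 8.88 and 8.69 in WT, against 8.81, 8.84 and 8.99 in Polg mutant cells, with overlapping groups and a difference of 0.10 ± 0.09 (SE, limma adjusted p = 0.715).

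Chromatin copying genes had a median of -0.40, the lowest of the 5 roles, and all 4 separated. The share separated downward was 20.6% over genes of mean log2 above 6. Uhrf1, which reads hemimethylated DNA behind the fork and recruits the maintenance methyltransferase, read 10.25 and 10.03 in WT, against 9.34, 9.66 and 9.61 in Polg mutant cells. Dnmt1, that methyltransferase, read 11.12 and 11.02 in WT, against 10.51, 10.66 and 10.71 in Polg mutant cells. The pair that restores DNA methylation after replication was lower on every Polg mutant array, by -0.60 ± 0.14 and -0.44 ± 0.08 (SE, limma adjusted p = 0.326 and 0.265).

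Chaf1b read 9.78 and 9.77 in WT, against 9.24, 9.49 and 9.56 in Polg mutant cells. Chaf1a read 8.65 and 8.57 in WT, against 8.23, 8.44 and 8.44 in Polg mutant cells. These 2 subunits of the chromatin assembly factor, which places new histones behind the fork, differed by -0.35 and -0.24.

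**Figure D3:**
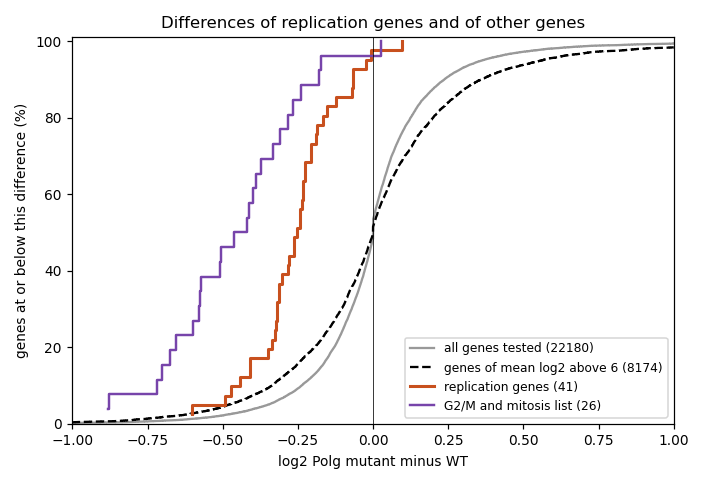
Cumulative share of genes (vertical axis, percent) at or below each difference, log2 Polg mutant minus WT (horizontal axis, shown from -1 to 1). The curve of the 41 replication genes crosses 50% at -0.25, that of the 26 mitosis genes at -0.44 and that of all genes at 0.

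In the median over the 41 genes each Polg mutant array lay below each WT array, to different degrees. The median deviation from the WT mean was -0.38 on Polg mutant replicate 1, -0.17 on replicate 2 and -0.21 on replicate 3, and 0.045 and -0.045 on the WT arrays. Against WT replicate 2, the lower of the WT arrays, 37 genes were lower on Polg mutant replicate 1, 35 on replicate 2 and 38 on replicate 3. Of all 22180 genes 9660, 9140 and 9694 were lower in the same pairs, where ties are not counted, and each median difference was 0. Of the 41 genes 28 had their highest value on WT replicate 1, 12 on WT replicate 2 and 1, Rfc5, on a Polg mutant array. The median difference was -0.19 without Polg mutant replicate 1 and -0.35 without WT replicate 2.

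These are bulk samples, in which fewer cells in S phase and less RNA per cell cannot be told apart. Of 16 neutrophil markers 13 had a higher mean in the Polg mutant and 3 a lower one, with a median difference of 0.44. Their mean levels were 8.13 and 7.14 on the WT arrays and 8.37, 8.86 and 7.24 on the Polg mutant arrays, and 0 of them separated. Between the arrays where they were lowest, WT replicate 2 and Polg mutant replicate 3, 38 of the replication genes were lower in the Polg mutant, with a median difference of -0.15. Of all 22180 genes 9694 were lower between these arrays, with a median difference of 0. This pair sets 1 array against 1 array. With the neutrophil mean as a covariate the median difference was -0.30. In that fit 9 of the 41 genes were lower at an unadjusted limma p under 0.05, against 14 without the covariate. Of all genes 6.24% were lower at that p in the covariate fit. The part of neutrophils in the lower values was not tested.

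The markers of erythroid cells were high on all arrays, with mean levels over 17 genes from 11.52 to 11.94, against a median of 5.33 for all genes. They too were lower in the Polg mutant, with a median of -0.31 and 16 of 17 separated, where 20.6% of genes of mean log2 above 6 separated downward. Tmod1, Epor, Sptb and Ermap had the smallest p, with differences of -0.66, -0.65, -0.31 and -0.36. Ptprc, which encodes CD45, read 6.06 to 7.67 and neutrophil granule genes such as Elane 10.55 to 11.75, so transcripts of leukocytes were measured after the depletion. Mean levels were 5.30 to 5.50 for 12 macrophage markers, 6.55 to 7.53 for 6 megakaryocyte markers, 5.34 to 5.94 for 9 lymphocyte markers and 6.20 to 6.53 for 9 early progenitor markers. The part of any cell type in the lower replication genes was not tested. Polg itself read 6.97 on all 5 arrays and Atg7 7.71 to 7.74, so neither level checks the labels.

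Other genes of the pathway, listed by function with earlier results of these data known, were counted in the same way. Over all genes 9.73% separated downward and 8.36% upward, and among genes of mean log2 above 6 these shares were 20.6% and 16.7%. At an unadjusted p under 0.05, 5.33% of all genes and 12.6% of those of mean log2 above 6 were lower. None of these genes passed limma's test at an adjusted p under 0.05. Of 29 further origin and fork genes 21 were lower, 13 separated downward and 0 upward, with a median of -0.17, and 6 had an unadjusted p under 0.05. Wdhd1, which links the helicase to polymerase alpha, differed by -0.62 ± 0.10, and it read 10.23 and 10.07 in WT against 9.43, 9.68 and 9.47. Rnaseh2b, a subunit of the nuclease that removes RNA from DNA, differed by -0.31, Supt16, a histone chaperone subunit, by -0.36 and the nuclease-helicase gene Dna2 by -0.37. The 8 with a higher mean differed by 0.0059 (Mcmbp) to 0.17 (Pold4), all with overlapping groups; they were 5 after renewed quantile normalization and 2 after centring on genes of mean log2 above 6, where Mcmbp differed by -0.046.

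Of 12 further chromatin copying genes 10 were lower and 6 separated downward, where 20.6% of genes of mean log2 above 6 did. Their median was -0.21. Rbbp4, the third subunit of the chromatin assembly factor, read 10.90 and 10.92 in WT, against 10.47, 10.64 and 10.64 in Polg mutant cells. Asf1b, the histone chaperone that hands histones to that factor, read 12.02 and 12.00 against 11.46, 11.70 and 11.72. On the probe sets used, all 3 subunits of the assembly factor (Chaf1a, Chaf1b and Rbbp4) and their histone donor were lower on every Polg mutant array. Rbbp4 has 2 probe sets, of which the brighter is given. With the mean of probe sets for each gene, 5 of the 12 genes separated downward and the median was -0.15. Asf1a differed by -0.15 and Tonsl by -0.32.

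Among 26 E2F factors, pocket proteins and S phase kinases 21 were lower, 16 separated downward and 3 upward, with a median of -0.32. The shares for genes of mean log2 above 6 were 20.6% downward and 16.7% upward, so the 3 upward are no more than that share. E2f1, an activator of replication genes, read 8.91 and 9.08 in WT, against 8.30, 8.59 and 8.67 in Polg mutant cells, a difference of -0.47 ± 0.14 (SE, limma adjusted p = 0.448). E2f4, an E2F that can also repress, read 11.64 and 11.53 against 10.96, 11.16 and 11.22. E2f2 differed by only -0.055, with 1 Polg mutant array tied with WT replicate 1. The differences between these E2F genes were not tested.

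Ccna2, the S phase cyclin, differed by -0.33 and Tfdp2, an E2F partner, by -0.40. The gene farthest from these was Cdkn1a, which encodes p21, an inhibitor of cyclin-dependent kinases that also binds Pcna. It read 7.33 and 6.64 in WT, against 10.50, 9.69 and 9.72 in Polg mutant cells, a difference of 2.99 ± 0.38 (SE, limma adjusted p = 0.224). It passed under 2 alternatives, centring on genes of mean log2 above 6 (limma adjusted p = 0.042) and the fit of genes with 5 distinct values (0.022), and over the others its adjusted p ran from 0.078 to 0.54. Its highest value was on Polg mutant replicate 1, the array where most replication genes were lowest. Whether these levels are linked was not tested.

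Of 24 genes of the replication checkpoint and of Pcna modification 17 were lower, 10 separated downward and 3 upward, with a median of -0.12. Among genes of mean log2 above 6, 20.6% separated downward and 16.7% upward, so the 3 upward are no more than that share. The translesion polymerase genes Polh and Polk differed by -0.50 ± 0.05 and -0.59 ± 0.09 (SE, limma adjusted p = 0.193 and 0.240). Parpbp, which acts with Pcna to restrain recombination, differed by -0.83. Atr, the kinase that senses stalled forks, was in the other direction. It read 6.00 and 6.02 in WT, against 6.66, 6.42 and 6.44 in Polg mutant cells, a difference of 0.50 ± 0.09. Its WT values lay close to log2 6, the limit used here for low values. Atr has 2 probe sets. In the fit on the mean of probe sets the largest difference of this list was 0.41, which is the value of Shprh. That of Atr was no larger there, so its 0.50 rests on the brighter probe set.

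Genes of G2 and mitosis, which follow S phase in the same cycle, were set beside the replication genes. There 25 of 26 genes were lower and the same number separated, with a median of -0.44. Of the 41 replication genes 29 separated, with a median of -0.25. The share separated downward was 20.6% over genes of mean log2 above 6. Ttk, Tpx2, Kif20a and Kif4 had the smallest p, with differences of -0.65, -0.60, -0.58 and -0.46. The difference between the 2 lists was not tested. On each Polg mutant array the median deviation of the mitosis list lay below that of the replication genes, at -0.59, -0.38 and -0.37 for replicates 1 to 3.

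**Figure D4:**
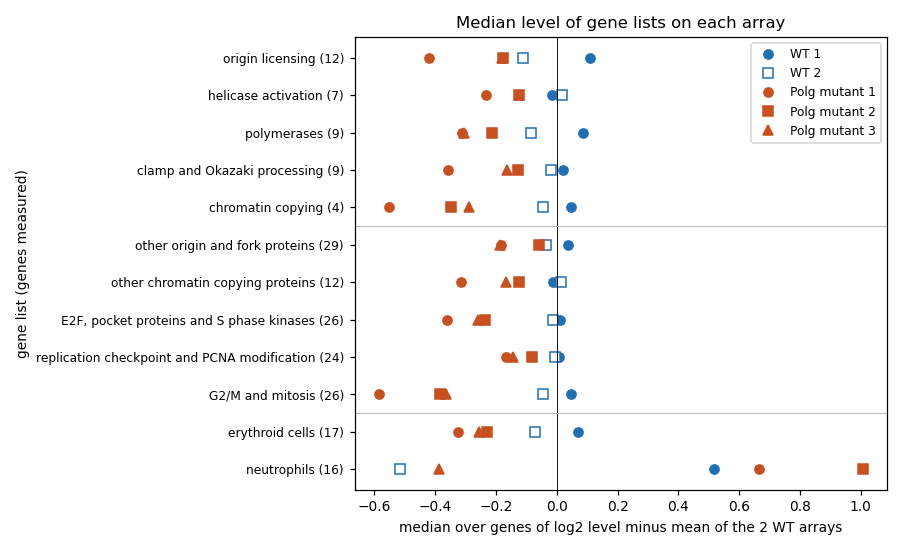
Median over the genes of a list of the log2 level minus the WT mean (horizontal axis) on each array, for the 5 replication roles, 5 related lists and 2 cell type marker lists. Every list but the neutrophil markers has all 3 Polg mutant arrays (orange) below both WT arrays (blue), while neutrophil markers set WT replicate 2 and Polg mutant replicate 3 apart from the others.

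The promoters of both lists were compared for 2 further motifs of cell cycle genes. The CHR-type letters TTTGAA and TTCGAA, known from G2 and mitosis genes, were found in 78.3% of 23 mitosis genes with a window, in 29.4% of 34 replication genes and in 19.4% of all tested genes. The CCAAT letters bound by NF-Y were found in 73.9%, 64.7% and 41.6%. The E2F-type letters were found in 4.35% of the mitosis genes. Letters did not divide the replication genes by their values: a match was found in 11 of 24 genes that separated and in 5 of the 10 others.

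By role, the E2F-type letters were found in 7 of 10 licensing genes, 1 of 5 helicase activation genes, 4 of 7 polymerase genes, 2 of 8 clamp and Okazaki genes and 2 of 4 chromatin genes. The CHR-type letters were in 4 of the 5 helicase activation genes (Cdc45, Cdc7, Dbf4 and Gins3). Fen1, Pcna, Chaf1b and Mcm2 separated without holding the E2F-type letters in their windows, which says only that these exact letters are not there.

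**Figure D5:**
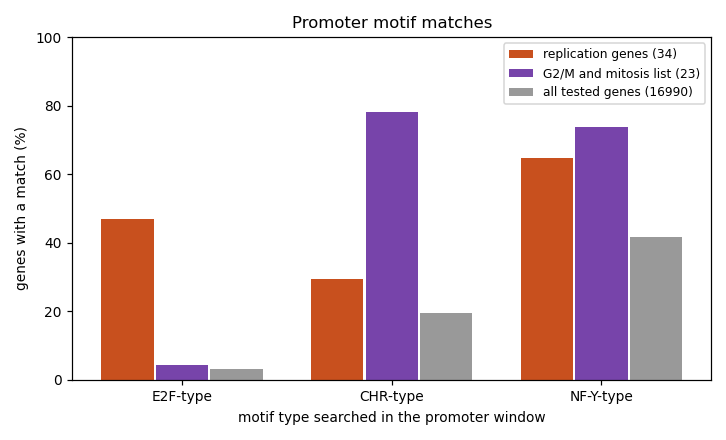
Share of genes (vertical axis, percent) with a match to E2F-type, CHR-type and NF-Y-type (CCAAT) letters in the promoter window, for 34 replication genes, 23 mitosis genes and 16990 tested genes. E2F-type letters are at 47.1% in replication genes and 4.35% in mitosis genes, and CHR-type letters at 29.4% and 78.3%.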

How the data were processed

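The deposited values are log2 levels of 41345 probe sets on 5 1-colour arrays, and were used unchanged. The submitters' processing notes name RMA and Partek 6.5 without saying what each did, and for the genome build the sources used here give nothing. That the values are log2 follows from their range (1.43 to 14.1, with array medians of 5.10 to 5.13). Signal over background was not known, and the number of arrays limits the precision. Each array was made from 100 ng of total RNA, per the labels' protocols. In the platform's annotation 23521 probe sets have 1 symbol, 1814 have more than 1 and 16010 are unnamed; those with 1 symbol were used, the brightest by mean over all arrays for each of 22180 genes.

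Groups were compared with limma 3.58.1 (R 4.3.3), genotype as the single term, empirical Bayes without trend, two-sided, Benjamini-Hochberg over all genes. The code was tested on simulated data. The members and lists were chosen with earlier results of these data known. Genes named with values on every array are the 2 to 4 of smallest p in each role and those of largest and smallest difference, with up to 4 by smallest p from other lists and Polg, Atg7, Cdkn1a, E2f1, E2f2 and E2f4; other genes named (among them Cdc7, Gins2, Mcm3, Elane, Mcmbp, Pold4, Pole3 and Pole4) were chosen after their values were seen. Protein sequences were not used here. Alternatives covered the variance model, scaling, low values, probe sets, ties, a neutrophil covariate, a replicate block and leaving out each array.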

Additional observations from a re-analysis of the deposited data

How the results depend on the processing

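Of the replication genes 0 passed limma's adjusted threshold under any alternative, and their median difference stayed negative, from -0.35 (without WT replicate 2) to -0.19 (without Polg mutant replicate 1). The count at an unadjusted p under 0.05, 14, was 18 with median centring, 21 after centring on genes of mean log2 above 6, 4 with no moderation of the variance, 7 among the 30 genes with 5 distinct values, 9 with the neutrophil covariate, and 2 to 11 when single arrays were left out. With the replicate number as a block it was 2 of 41, near the 4.77% of all genes. The labels do not say that the numbers pair samples. Deviations of same-numbered arrays correlated at 0.19 for number 1 and -0.20 for number 2, but with 2 WT arrays the deviations mirror each other, so this check settles nothing about pairing.

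Over all genes, limma called 1 lower and 4 higher with no moderation, 2 and 10 after renewed quantile normalization, 24 and 31 after centring on genes of mean log2 above 6, 5 and 6 with genes kept only where 2 or more arrays exceeded log2 6, and 41 and 73 among genes with 5 distinct values. Leaving out single arrays gave 0 to 1068 lower and 0 to 713 higher. The highest were without WT replicate 1, where 1 WT array remains and is assumed to vary like the Polg mutant arrays. Genes with all Polg mutant arrays below both WT arrays, 2158, numbered 4043 after quantile normalization, 3490 after median centring, 4642 after centring on the brighter genes, and 2584 to 6230 with single arrays left out. The cause was not tested. Of the pathway and mitosis genes named, Cdkn1a passed after that centring and among genes with 5 distinct values, Supt16 without WT replicate 2 and Ttk without either WT array.

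The sign turned for some named genes. After quantile normalization Orc2 differed by 0.0075, Pold2 by 0.038, Pole3 by 0.031, Pole4 by -0.022, Atg7 by -0.027 and Polg by -0.044; after centring on the brighter genes Mcmbp differed by -0.046, Pole4 by -0.029, Atg7 by -0.038 and Polg by -0.052, and after median centring Polg by -0.0053. With the neutrophil covariate Gins2 differed by 0.0050, Mcmbp by -0.032, Elane by -0.042 and Ptprc by -0.20. With single arrays left out Gins2 ranged from -0.25 to 0.12, Pole3 from -0.16 to 0.11, Mcmbp from -0.028 to 0.041, Elane from -0.28 to 0.78, Itgb3 from -0.71 to 0.14, Ppbp from -2.57 (passing, without WT replicate 1) to 0.71 and Ptprc from -0.086 to 0.76. Scaling moved the median of all genes to -0.052 at most.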
